A study of Mus musculus with 16 samples.

Results

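BCL2 family genes encode the proteins that decide whether the outer mitochondrial membrane is opened during apoptosis. The data cover 10 members of this family, chosen by symbol in the deposited count table of 40840 genes: the anti-apoptotic members Bcl2, Bcl2l1 and Mcl1, the effector members Bax and Bak1, and the BH3-only members Bcl2l11, Bbc3, Pmaip1, Bid and Bmf. All 10 had enough reads to be tested among 20444 genes. RNA was measured in p53-/-; Myc hepatoblasts, a mouse cell line used as a model of hepatocellular carcinoma, treated for 48 hours or for 7 days with sorafenib or with the vehicle DMSO alone, and each of these 4 groups had 4 libraries. Sorafenib, a multi-kinase inhibitor given in advanced hepatocellular carcinoma, was used at 8.5 µM. The loss of p53 and the overexpression of Myc were shared by every group, vehicle included, and all 16 libraries came from the same line.

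Anti-apoptotic members (BCL2, BCL-XL from Bcl2l1, MCL1) bind and hold back both the effectors and the BH3-only proteins. When freed or directly activated, the effectors BAX and BAK form pores in the outer mitochondrial membrane, cytochrome c escapes and caspases are switched on. BH3-only proteins (BIM from Bcl2l11, PUMA from Bbc3, NOXA from Pmaip1, BID and BMF) carry stress signals to this step, and several of them are controlled through the amount of their RNA. Levels below are RNA levels only, and much of the control of MCL1, BIM and NOXA is known to act on the protein.

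The upstream sequences of Bcl2, Bcl2l11 and Bmf are shown because these 3 members moved most at 48 hours, Bcl2 upwards and the BH3-only pair downwards. Each runs 5′ to 3′ on the strand of its gene and ends at the base before the annotated gene. They were taken from RefSeq promoter windows (mouse build GRCm38.p6), matched letter for letter to GRCm39 and placed at chr1:106642061-106642270 on the minus strand for Bcl2, chr2:127967708-127967957 on the plus strand for Bcl2l11 and chr2:118380178-118380417 on the minus strand for Bmf. Capitals mark a GC box (GGGCGG, or CCGCCC on the other strand) and, in Bcl2l11, the first capitals mark a FOXO motif (GTAAACA).

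Bcl2 upstream: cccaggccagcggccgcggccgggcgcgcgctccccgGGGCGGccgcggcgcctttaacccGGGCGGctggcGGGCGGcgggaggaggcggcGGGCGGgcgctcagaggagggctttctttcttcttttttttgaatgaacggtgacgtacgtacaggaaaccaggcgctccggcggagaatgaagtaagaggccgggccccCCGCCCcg

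Bcl2l11 upstream: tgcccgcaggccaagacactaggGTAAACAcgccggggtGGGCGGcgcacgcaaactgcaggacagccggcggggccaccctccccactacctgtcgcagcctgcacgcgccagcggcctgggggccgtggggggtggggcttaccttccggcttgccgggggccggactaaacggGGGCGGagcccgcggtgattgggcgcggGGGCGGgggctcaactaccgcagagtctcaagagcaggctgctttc

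Bmf upstream: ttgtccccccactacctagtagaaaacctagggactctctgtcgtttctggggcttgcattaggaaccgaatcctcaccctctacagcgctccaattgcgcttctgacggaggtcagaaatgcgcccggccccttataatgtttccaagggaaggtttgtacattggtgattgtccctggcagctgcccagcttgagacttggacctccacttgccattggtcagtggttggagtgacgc

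Windows of 300 bases, from 250 before to 50 after a RefSeq start, were found for 9 of the 10 members, all but Pmaip1. For each, the 1 window nearest the annotated start of the gene was searched on both strands. Bmf, Bcl2l1 and Bbc3 had 3 starts and Bcl2l11 had 2, and their other starts were not searched. Bcl2 held 7 GC boxes, 5 of them within the stretch printed. Bcl2l11 held 3 GC boxes and the single FOXO motif, at -227 from the start, whereas Bmf held no FOXO motif and a single GC box at -4, beyond its printed stretch. Among the 9 windows only those of Bcl2l1 and Bak1 held no GC box, with 5 in Bbc3, 3 each in Bax and Bid and 1 in Mcl1. GC boxes were present in 35.7% and the FOXO motif in 3.65% of all 32851 windows of this length. TGATGCAA, an element bound by ATF4 together with C/EBP, was in 0.895% of all windows and in none of the 9. The E-box CACGTG was in 7.15% of all windows and, among the 9, in that of Bax. None of the 4 motifs overlapped another kind in these windows, and the matches describe letters only.

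Total counts per library ran from 16586254 to 30828427 (median 26360677). In the library of sorafenib at 48 hours, replicate 2, genes on chromosomes 15 to 19 and X had lowered counts, with a step of -0.725 on the log2 scale relative to the other genes, against at most 0.00594 in size in libraries of the other groups. Bak1 on chromosome 17 and Pmaip1 on chromosome 18 lie in that region, so the values that use this library are given with and without it for these 2 genes. On chromosomes 1 to 13, where the other members lie, its median log2 deviation from the rest of its group was 0.0909. Their values in this library may thus be raised. The defining liver genes were absent or low: Hnf4a had 0 counts in every library and the means of Alb and Afp were at most 0.449 and 9.45 normalized read counts in any group, while the progenitor marker Dlk1 was at 32234, 10444, 16766 and 4020 in DMSO and sorafenib at 48 hours and DMSO and sorafenib at 7 days. Summed over 10 hepatoblast markers, levels were 34810 to 36180, 12240 to 14010, 18310 to 20170 and 6039 to 6309 in the same order, with 1 marker at 0 in all libraries. Most of this sum was Dlk1, and Sox9 went the other way, from 213 to 664 counts at 48 hours and from 350 to 904 at 7 days (log2 1.64 and 1.37, edgeR adjusted p 5.715e-13 and 1.845e-12). Krt19, Krt18 and Krt8 were measured in every group, at group means of 1016 to 2626, 177 to 335 and 63.5 to 136 counts. Summed over 10 markers of other cell types, of which 2 were at 0 in all libraries, levels were 45100 to 48080, 132600 to 153500, 65370 to 67280 and 114000 to 119000. Nearly all of that sum was Col1a1 and Acta2, whereas the immune and endothelial markers Ptprc, Adgre1, Cd3e and Cdh5 were at or near 0 and Pecam1 had group means of at most 4.73. Des went the other way. It was at 89.5 in DMSO and 72.6 under sorafenib at 48 hours, which was not called. At 7 days it was at 42.2 and 18.8 (log2 -1.14, edgeR adjusted p 1.392e-04). The macrophage marker Cd68 was measured in every group, at means of 68.3, 67.6, 69.1 and 66.0 counts. The summed marker levels moved with the groups compared below, and their part in the results was not tested. Trp53 itself had 1766 to 4147 normalized read counts per library. The labels do not give the deleted part of the gene, so these counts do not check its loss.

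At 48 hours, sorafenib raised 7 of the 10 members and lowered 2, with Bcl2l1 not called. Bcl2 rose most and Bid and Bax followed, while Bmf and Bcl2l11 fell. A member was called where edgeR's quasi-likelihood test over all genes gave a Benjamini-Hochberg adjusted p under 0.05, and 54.6% of all genes tested were called at 48 hours, 26.9% higher and 27.7% lower. Groups did not overlap for 7 members, against 48% of all genes. The members averaged 639 to 5050 normalized read counts over the libraries, whereas all genes tested include many at far lower levels, where calls are harder to reach. Shares for genes of like level were not computed, here or below. The median log2 fold change was 0.36 over the members and -0.05 over all genes, or 0.44 and -0.04 without sorafenib at 48 hours, replicate 2.

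At 7 days, 5 members were higher and 4 lower under sorafenib, with Mcl1 not called. Bcl2, Bbc3, Bid, Bak1 and Bax were higher, and Bmf, Pmaip1, Bcl2l11 and Bcl2l1 were lower. Among all genes 56.8% were called, 28.9% higher and 27.9% lower. Groups did not overlap for 9 members, against 56.8% of all genes. The median log2 fold change was 0.07 over the members and 0.02 over all genes. At each time 9 of the 10 members were called, beside the 54.6% and 56.8% of all genes, and size and direction carry more of the description than the count. With a log2 change of 1 or more in size required as well, 3 members were called at 48 hours against 18% of all genes, and 4 at 7 days against 20.6%. The libraries are bulk RNA, so a smaller share of cells with a transcript and less of it per cell cannot be told apart.

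**Figure D1:**
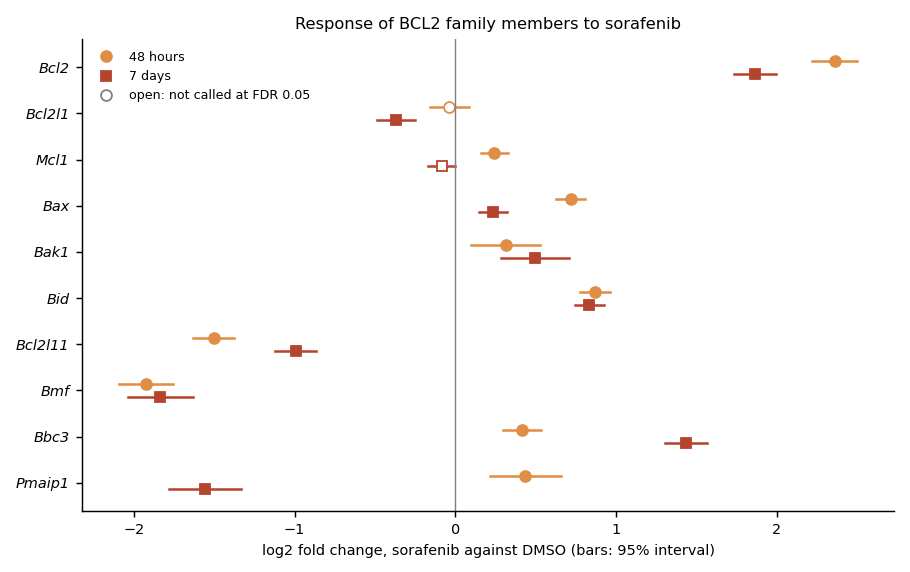
Log2 fold change of each member, sorafenib against DMSO, at 48 hours (circles) and 7 days (squares), with 95% intervals from the fit over 16 libraries; open symbols were not called. Bcl2 lies farthest to the right at both times (2.36 and 1.86), Bmf farthest to the left (-1.92 and -1.83), and Pmaip1 lies right of 0 at 48 hours (0.43) and left of it at 7 days (-1.56).

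Bcl2 (chromosome 1), the founding anti-apoptotic member, had 264, 226, 236 and 212 normalized read counts in the 4 DMSO libraries at 48 hours and 1099, 1269, 1253 and 1179 under sorafenib. The counts at 7 days were 328, 356, 366 and 389 in DMSO and 1308, 1262, 1371 and 1296 under sorafenib. Every treated library lay above every vehicle library of either time. The log2 fold change was 2.36 ± 0.067 (SE, n = 4 against 4) at 48 hours and 1.86 ± 0.062 at 7 days (edgeR adjusted p 1.001e-16 and 1.206e-15). The response at 7 days was smaller by a log2 difference of -0.50 ± 0.092 (interaction term, edgeR adjusted p 2.068e-04). Vehicle cells themselves had more Bcl2 RNA at 7 days than at 48 hours (log2 0.62 ± 0.072), whereas the treated groups differed by 0.13 with a 95% interval of 0.0057 to 0.24 and were not called (edgeR adjusted p 0.09195). The order of its 4 levels was thus DMSO at 48 hours, DMSO at 7 days and then the treated groups, which were not separated in this fit.

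Bcl2l1 (chromosome 2), which gives BCL-XL, responded little. At 48 hours it had 954 to 1061 counts in DMSO and 905, 1120, 912 and 926 under sorafenib, a log2 fold change of -0.04 with an interval of -0.16 to 0.08 (edgeR adjusted p 0.61). The high value among the treated libraries was that of replicate 2, and without it the log2 fold change was -0.11 and was called (edgeR adjusted p 0.02657). At 7 days the groups separated, with 1332 to 1452 counts in DMSO and 1057 to 1113 under sorafenib (log2 -0.37 ± 0.056, edgeR adjusted p 9.305e-06). Vehicle cells had more Bcl2l1 RNA at 7 days than at 48 hours (log2 0.49 ± 0.056), so its highest level of the 4 groups was that of DMSO at 7 days.

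Mcl1 (chromosome 3), whose short-lived protein restrains BAK and BIM, was higher under sorafenib at 48 hours and was not called at 7 days. Its counts were 4123, 4131, 4289 and 4106 in DMSO and 4950, 5184, 4986 and 4585 under sorafenib at 48 hours (log2 0.24 ± 0.041, edgeR adjusted p 3.345e-05). By 7 days DMSO libraries had 5513 to 5880 counts and sorafenib libraries 5189, 5815, 5287 and 5285, and the groups overlapped through the treated replicate 2. Its 7-day log2 fold change was -0.08 with an interval of -0.17 to 0.0006 and was not called (edgeR adjusted p 0.08466), and without that replicate it was -0.12 and called (edgeR adjusted p 0.01229). The difference between the times was called (-0.33 ± 0.057, edgeR adjusted p 1.174e-04). Vehicle cells gained Mcl1 RNA between the times as well (log2 0.46 ± 0.040), more than sorafenib added at 48 hours in this fit (0.24), although these comparisons share the DMSO libraries of 48 hours.

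**Figure D2:**
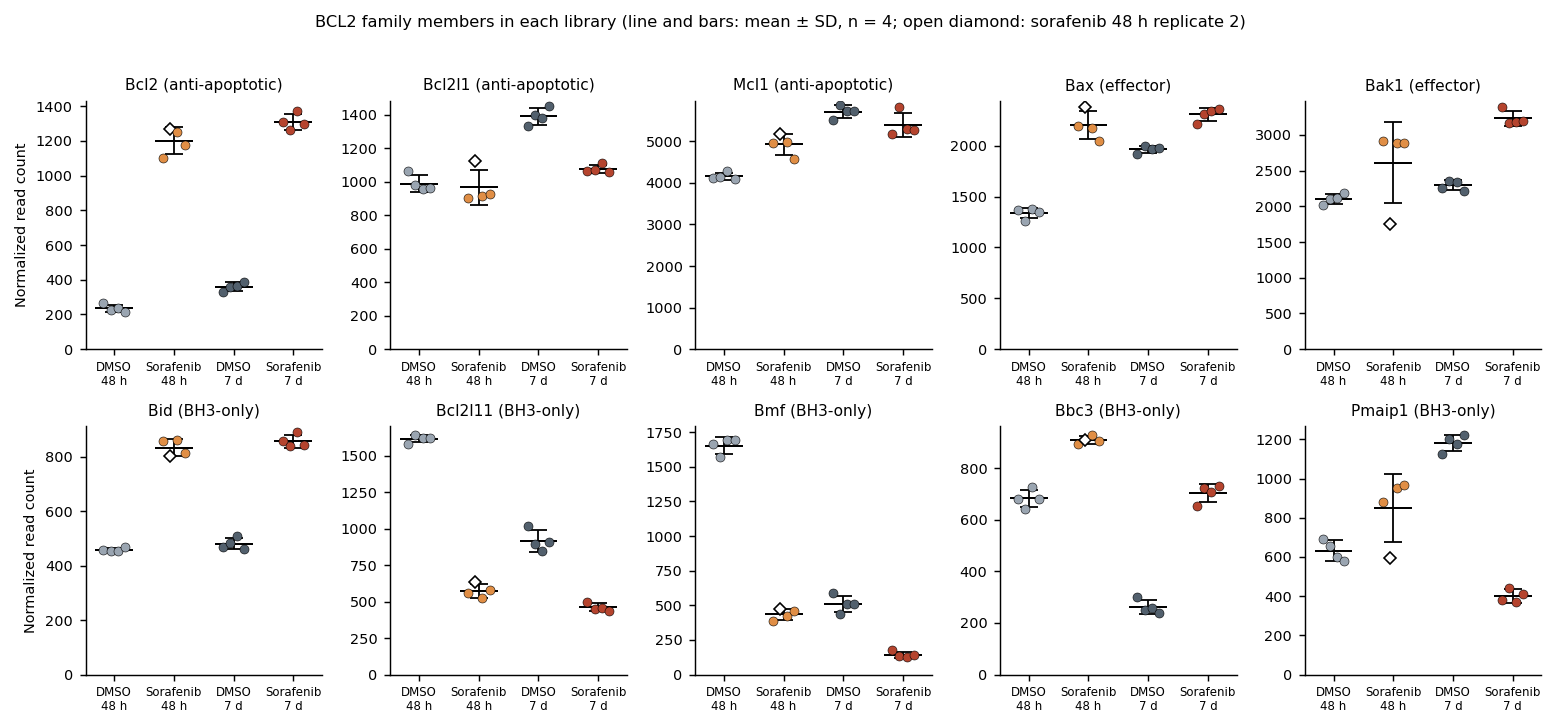
Normalized read counts (y axis, from 0) of the 10 members in all 16 libraries by group, with mean and SD of 4 libraries; the open diamond is sorafenib at 48 hours, replicate 2. Treated and vehicle points are far apart for Bcl2, Bcl2l11, Bmf and Bid at both times, and the open diamond lies below its group for Bak1 (1757 against 2881 to 2923) and Pmaip1 (594 against 878 to 970).

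Among the effectors, Bax (chromosome 7) had 1365, 1265, 1376 and 1345 counts in DMSO and 2200, 2385, 2173 and 2049 under sorafenib at 48 hours. The 7-day libraries had 1921, 2000, 1965 and 1982 counts in DMSO and 2217, 2311, 2347 and 2361 under sorafenib. No treated library overlapped its own vehicle group. Bax responded with a log2 fold change of 0.72 ± 0.043 at 48 hours and 0.23 ± 0.042 at 7 days (edgeR adjusted p 1.346e-11 and 7.752e-05), and the difference of -0.49 ± 0.060 was called (edgeR adjusted p 1.793e-06). Vehicle cells had more Bax RNA at 7 days than at 48 hours (log2 0.56 ± 0.043), while the treated groups differed by 0.07 with an interval of -0.02 to 0.16 (edgeR adjusted p 0.2014). The smaller response at 7 days thus went with a higher vehicle level and with treated means of 2202 and 2309.

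Bak1 (chromosome 17), the effector that sits in the mitochondrial membrane in resting cells, had 2019.5, 2107, 2118 and 2187 counts in DMSO at 48 hours. Under sorafenib it had 2923, 1757, 2881 and 2885 counts, the low value being that of replicate 2, the library with lowered counts in this part of the genome. With all libraries the log2 fold change was 0.31 ± 0.10 (edgeR adjusted p 0.01329), and without replicate 2 it was 0.46 ± 0.032 (edgeR adjusted p 9.596e-18). With replicate 2 kept, the call was lost without DMSO replicate 1 or without any of sorafenib replicates 1, 3 and 4 (log2 0.23 to 0.27, edgeR adjusted p 0.06503 to 0.09711). At 7 days the groups did not overlap, at 2210 to 2360 counts in DMSO and 3163 to 3394 under sorafenib (log2 0.50 ± 0.10, edgeR adjusted p 2.651e-04). The responses at the 2 times differed by 0.18 with an interval of -0.12 to 0.48 and were not called different (edgeR adjusted p 0.3539), and by 0.04 without replicate 2. Between the treated groups Bak1 was higher at 7 days by a log2 difference of 0.30 ± 0.10 (edgeR adjusted p 0.02092), or 0.16 ± 0.031 without replicate 2 (edgeR adjusted p 2.962e-05). In the GENCODE annotation 18.2% of the exon bases of Bak1 lie opposite exons of Ggnbp1, which had 33 to 88 counts per library.

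The BH3-only members went in both directions. Bid, Bbc3 and Pmaip1 were higher and Bmf and Bcl2l11 lower at 48 hours. At 7 days Pmaip1 had joined the lower members. The median log2 fold change of the 5 was 0.41 at 48 hours and -0.99 at 7 days, against -0.05 and 0.02 over all genes. This median moved because Pmaip1 changed sides among members that went both ways. The median of the differences between the responses was 0.09 over the 5 and 0.02 over all genes.

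Bcl2l11 (chromosome 2), whose product BIM binds every anti-apoptotic member, had 1584, 1641, 1623 and 1623 counts in DMSO at 48 hours and 558, 638, 523 and 577 under sorafenib. For 7 days the values were 1020, 893, 846 and 911 in DMSO and 501, 449, 457 and 437 under sorafenib. All 8 treated libraries lay below all 8 vehicle libraries. This gave log2 fold changes of -1.50 ± 0.061 at 48 hours and -0.99 ± 0.062 at 7 days (edgeR adjusted p 2.738e-14 and 2.463e-11), and the response was smaller at 7 days (difference 0.51 ± 0.087, edgeR adjusted p 9.438e-05). In vehicle cells its RNA was lower at 7 days than at 48 hours (log2 -0.82 ± 0.057), and in treated cells it was lower as well (-0.31 ± 0.066, edgeR adjusted p 6.739e-04). Its 4 levels therefore stood in the order sorafenib at 7 days, sorafenib at 48 hours, DMSO at 7 days and DMSO at 48 hours, the outer steps called by the tests just given and the middle pair of groups not tested, although their libraries did not overlap.

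Bmf (chromosome 2), a BH3-only protein tied to the cytoskeleton, fell furthest of the members at both times. At 48 hours it had 1664, 1568, 1691 and 1690 counts in DMSO and 387, 476, 424 and 459 under sorafenib. At 7 days it had 586, 440, 509 and 507 counts in DMSO and 174, 135, 124 and 143 under sorafenib. No treated library overlapped the vehicle libraries of its own time, whereas the treated libraries at 48 hours overlapped the vehicle libraries at 7 days. The log2 fold change was -1.92 ± 0.080 at 48 hours and -1.83 ± 0.096 at 7 days (edgeR adjusted p 4.237e-14 and 1.576e-12). The responses differed by 0.09 with an interval of -0.18 to 0.36 (edgeR adjusted p 0.6522). Its RNA was also lower at 7 days than at 48 hours within each arm, by log2 differences of -1.70 ± 0.077 in DMSO and -1.61 ± 0.10 under sorafenib (edgeR adjusted p 4.984e-13 and 1.022e-10).

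Bbc3 (chromosome 7), which gives PUMA and is a classical p53 target, had 682, 643, 726 and 681 counts in DMSO and 892, 910, 927 and 904 under sorafenib at 48 hours. At 7 days it had 301, 249.3, 260 and 238 counts in DMSO and 652, 723, 708 and 732 under sorafenib. No groups overlapped at either time. Its log2 fold changes were 0.41 ± 0.056 at 48 hours and 1.43 ± 0.062 at 7 days (edgeR adjusted p 2.651e-06 and 7.564e-14), a difference of 1.02 ± 0.084 (edgeR adjusted p 7.512e-09). The treated level was lower at 7 days than at 48 hours (log2 -0.37 ± 0.056, edgeR adjusted p 2.382e-05), and the vehicle level was lower by more (-1.39 ± 0.062, edgeR adjusted p 4.541e-13). The larger response at 7 days is therefore measured against a vehicle mean of 262 counts, compared with 683 at 48 hours.

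Pmaip1 (chromosome 18), which gives NOXA, an inhibitor mainly of MCL1 and another known p53 target, reversed between the times. At 48 hours it had 694, 658, 601 and 579 counts in DMSO and 878, 594, 952 and 970 under sorafenib, the overlap coming from replicate 2. At 7 days it had 1124, 1201, 1176 and 1223 counts in DMSO and 379, 443, 370 and 412 under sorafenib, with no overlap. The log2 fold change was 0.43 ± 0.11 at 48 hours (edgeR adjusted p 1.501e-03), or 0.57 ± 0.056 without replicate 2, and -1.56 ± 0.11 at 7 days (edgeR adjusted p 1.072e-10). The difference of -1.99 ± 0.15 (edgeR adjusted p 1.972e-09), or -2.12 ± 0.078 without replicate 2, was the largest in size among the 10 members. Vehicle cells rose from a mean of 633 to 1181 counts between the times (log2 0.90 ± 0.10) and treated cells fell from 849 to 401 (log2 -1.09 ± 0.11). Without replicate 2 the treated mean at 48 hours was 933 and that fall was -1.22 ± 0.060.

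Bid (chromosome 6), which caspase-8 cleaves to link death receptors to mitochondria, changed by nearly equal amounts at both times. It had 456, 455, 452 and 467 counts in DMSO and 859, 803, 861 and 813 under sorafenib at 48 hours. At 7 days it had 470, 484, 510 and 460 counts in DMSO and 859, 838, 889 and 842 under sorafenib. The log2 fold changes were 0.87 ± 0.045 and 0.83 ± 0.043 (edgeR adjusted p 1.248e-12 and 1.464e-12). The difference between them was -0.03 with an interval of -0.16 to 0.10, and time was not called in DMSO (log2 0.07, interval -0.02 to 0.17) or under sorafenib (0.04, interval -0.05 to 0.13). Exons of Bcl2l13 on the other strand cover 31.2% of the exon bases of Bid. Bcl2l13 had 2190 to 4111 counts per library, and its log2 fold changes went the other way, at -0.14 and -0.22. The strand setting of the counting was not given in the sources used here, so how reads in the shared stretch were assigned is unknown.

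Across the members, 7 responses differed between 48 hours and 7 days, 2 with a higher and 5 with a lower value at 7 days, where 36.8% of all genes were called, 15.5% higher and 21.3% lower. The higher values were those of Bbc3 and Bcl2l11, the latter through a smaller fall. The lower values were those of Pmaip1, Bcl2, Bax, Bcl2l1 and Mcl1. Bak1, Bid and Bmf were not called. In these differences the length of exposure and the day or batch of the culture cannot be told apart.

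Vehicle cells alone differed between the times in 8 members, against 49.4% of all genes called (23.9% higher, 25.5% lower), and their libraries did not overlap for 9, against 50.8% of all genes. Bcl2, Bcl2l1, Mcl1, Bax and Pmaip1 were higher at 7 days and Bcl2l11, Bbc3 and Bmf lower. Treated cells differed in 7 members, against 39.7% of all genes (17.5% higher, 22.3% lower), and did not overlap for 6, against 35.8%, with Bcl2l1, Mcl1 and Bak1 higher and Bcl2l11, Bbc3, Pmaip1 and Bmf lower. Within these comparisons the time in culture and the day or batch of the culture cannot be told apart. In DMSO the 3 anti-apoptotic members had log2 differences of 0.46 to 0.62, and among BH3-only members only Pmaip1 was called higher. Leaving out sorafenib at 48 hours, replicate 2, gave 10 members called at 48 hours (7 higher, 3 lower), 10 at 7 days (5 and 5), 9 between the vehicle groups (6 and 3, now with Bak1) and 9 between the treated groups (5 and 4, now with Bcl2 and Bax). The share of all genes called was larger in that fit as well, at 57%, 61.9%, 55.2% and 44.5% for these 4 comparisons. Among the treated groups the call of Mcl1 was lost without sorafenib at 7 days, replicate 2 (log2 0.093, edgeR adjusted p 0.0692), that of Bak1 without replicate 1 of the same group (0.28, edgeR adjusted p 0.05683), and that of Bcl2l1 without any of replicates 1 and 3 at 48 hours or 1, 2 and 3 at 7 days (0.14 to 0.16, edgeR adjusted p 0.05157 to 0.09247).

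Levels of different genes were compared only as normalized read counts per kilobase of annotated exon. On that scale Mcl1 was the most abundant of the anti-apoptotic members in every group, at 1192 ± 24.3 (SD, n = 4), 1411 ± 71.5, 1637 ± 43.4 and 1545 ± 81.5 in DMSO and sorafenib at 48 hours and DMSO and sorafenib at 7 days. Bcl2l1 was at 193 ± 9.61, 188 ± 20.2, 271 ± 9.61 and 209 ± 4.91, and Bcl2 at 25.4 ± 2.40, 130 ± 8.45, 39.0 ± 2.74 and 142 ± 4.96. Of the sum of the 3, Bcl2 made up 1.80% ± 0.156 and 2.00% ± 0.111 in DMSO at 48 hours and 7 days, and 7.53% ± 0.422 and 7.51% ± 0.485 under sorafenib. Mcl1 kept 84.5% ± 0.824 and 84.1% ± 0.426 of the sum in DMSO and 81.6% ± 0.955 and 81.4% ± 0.999 under sorafenib. The rise of Bcl2 thus left it the least abundant of the 3 transcripts per kilobase in every group. These shares depend on the length used, since the exon length of Bcl2 is 9213 bases and its coding length 729. Per kilobase of coding length Bcl2 reached 20.9% and 20.8% under sorafenib and passed Bcl2l1, which then had 16.1% and 16.3%.

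Of the sum of the 5 BH3-only members per kilobase of exon, Bmf had the largest share in DMSO at 48 hours (35.1% ± 1.16) and the smallest under sorafenib at 7 days (6.03% ± 0.969). Its first place depends on the length used. Per kilobase of coding length, an alternative chosen after seeing the data, Bcl2l11 had 27.6%, Pmaip1 26.3% and Bmf 23.8% in DMSO at 48 hours, while Bmf was still the smallest under sorafenib at 7 days (3.64%). Per kilobase of exon Pmaip1 had 25.9% ± 1.92 and 42.5% ± 5.83 in DMSO and sorafenib at 48 hours, the latter 45.4% ± 0.877 (n = 3) without replicate 2, and 59.7% ± 2.57 and 32.3% ± 1.82 at 7 days. Bbc3 went from 7.55% ± 0.730 in DMSO to 32.3% ± 1.29 under sorafenib at 7 days. The summed level of the 5 was 895 ± 15.98 and 725 ± 58.3 per kilobase in DMSO and sorafenib at 48 hours and 724 ± 10.4 and 454 ± 12.3 at 7 days. Without sorafenib at 48 hours, replicate 2, that group had summed levels of 752 ± 24.8 for the BH3-only members and 2357 ± 49.6 for the effectors. With all libraries the summed effectors were at 1596 ± 36.6, 2271 ± 176, 2012 ± 39.0 and 2588 ± 20.1, and the summed anti-apoptotic members at 1410 ± 23.3, 1729 ± 90.3, 1947 ± 51.5 and 1897 ± 78.1. So over these members the summed BH3-only RNA was lower and the summed effector RNA higher under sorafenib at each time, with no overlap between the libraries, while the anti-apoptotic sum was higher at 48 hours and overlapped between the groups at 7 days. The sums leave out other BCL2 family genes. Among those, Hrk, Bcl2l2 and Bok were called higher under sorafenib at both times and Bad lower at 48 hours. Per kilobase of coding length the anti-apoptotic sum did not overlap at 7 days either, at 7750 to 8242 in DMSO and 8418 to 8988 under sorafenib. These sums are descriptions and were not tested.

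**Figure D3:**
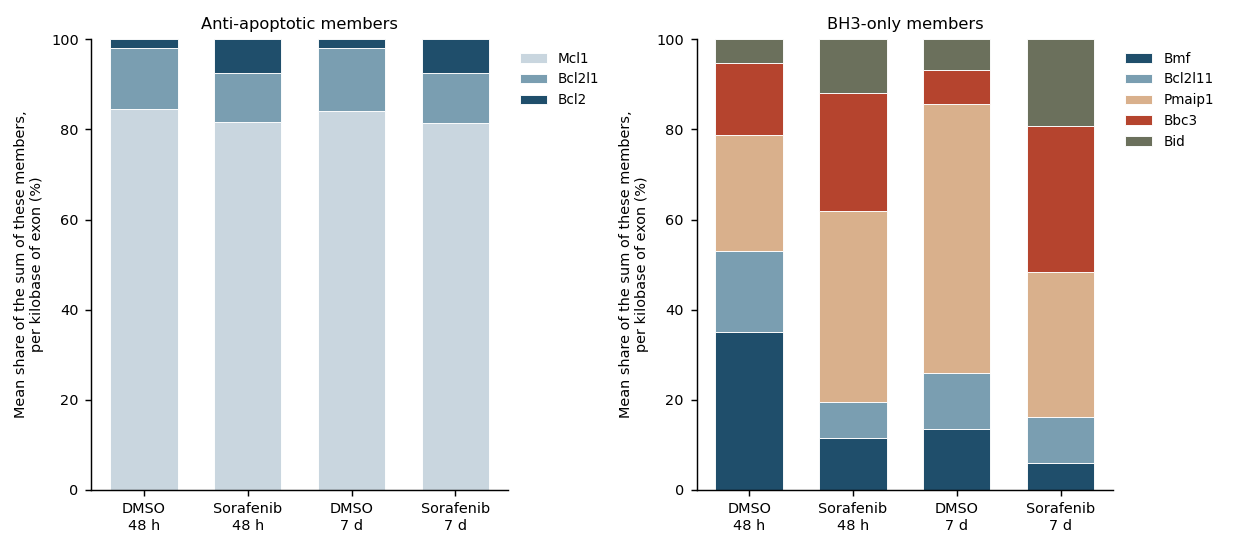
Mean share (percent, y axis) of each member in the sum of the anti-apoptotic members (left) and of the BH3-only members (right), per kilobase of exon, in the 4 groups of 4 libraries. Bcl2 goes from 1.80% to 7.53% at 48 hours and from 2.00% to 7.51% at 7 days, and Bmf from 35.1% to 11.5% and from 13.4% to 6.03%. The sorafenib group at 48 hours includes replicate 2, without which Bmf had 10.7% and Pmaip1 45.4%.

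Ratios within a library do not depend on how libraries were scaled against each other. The log2 ratio of Bcl2 to Bcl2l11 per kilobase of exon was -2.66 ± 0.15 in DMSO and 1.20 ± 0.13 under sorafenib at 48 hours, and -1.22 ± 0.20 and 1.64 ± 0.091 at 7 days. The ratio of Bcl2 to Bmf went from -3.63 ± 0.14 to 0.65 ± 0.091 at 48 hours and from -1.31 ± 0.24 to 2.39 ± 0.23 at 7 days. In both ratios all vehicle libraries were below 0 and all treated libraries above 0, also per kilobase of coding length, where the ratio of Bcl2 to Bmf in DMSO at 7 days came closest to 0 (-0.549 to -0.0157). These 2 ratios were not planned. They pair the member that rose most at 48 hours with the 2 that fell most, so a wide separation follows from the choice. The ratio of Bax to Bcl2 was 4.83 ± 0.12 and 3.19 ± 0.10 at 48 hours and 4.77 ± 0.086 and 3.13 ± 0.059 at 7 days. It was thus lower under sorafenib although Bax rose, with the least abundant anti-apoptotic transcript per kilobase of exon as its denominator. The summed effectors showed no such fall against the summed anti-apoptotic members. Those sums were 1596 and 2271 against 1410 and 1729 at 48 hours. At 7 days they were 2012 and 2588 against 1947 and 1897. The ratio of Bcl2l11 to Mcl1 fell from -2.90 ± 0.033 to -4.64 ± 0.12 and from -4.18 ± 0.15 to -5.08 ± 0.13.

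**Figure D4:**
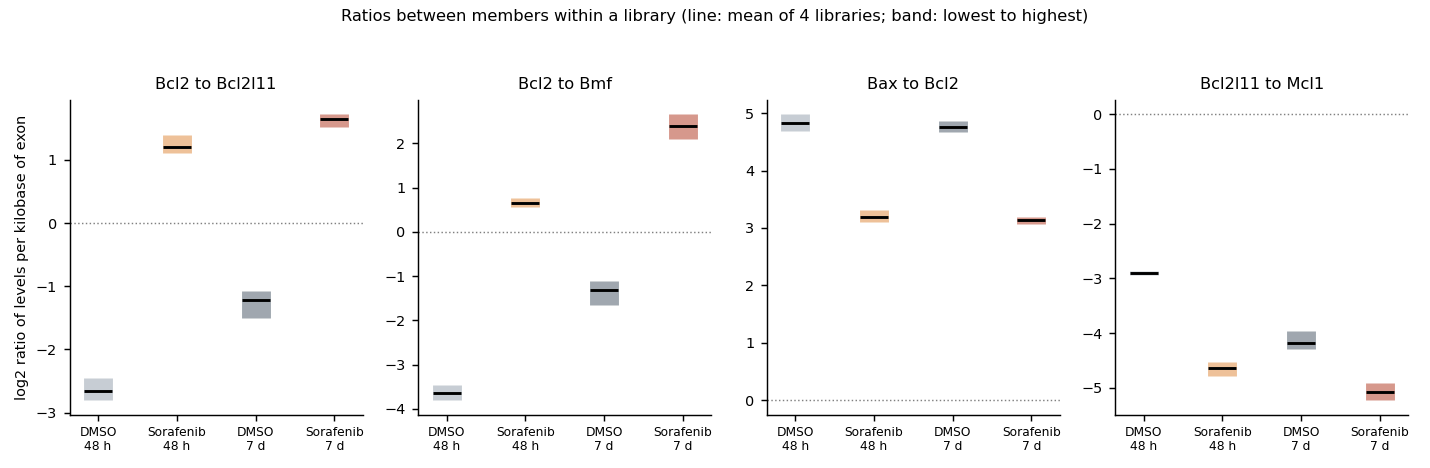
Log2 ratios of 2 members per kilobase of exon within a library, by group; the line is the mean of 4 libraries, the band their lowest to highest value and the dotted line equal levels. The ratios of Bcl2 to Bcl2l11 and to Bmf cross 0 between vehicle and treated libraries at both times, and the ratio of Bax to Bcl2 is lower in treated libraries (3.19 and 3.13 against 4.83 and 4.77).

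The genes most like Bcl2 over the 16 libraries, among the 10645 genes whose mean reached 100 normalized read counts, were Psph (Pearson r 0.9974 of log2 levels), Col4a1 (0.9972) and Tpm2 (0.997). Psph encodes an enzyme of serine synthesis, Col4a1 a basement membrane collagen and Tpm2 a tropomyosin. Most like Bmf were Adam11 (0.9957), Hbp1 (0.995) and Rab11fip4 (0.9934). The libraries form 4 groups, so these correlations describe group means more than single libraries.

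A list of 16 other BCL2 family genes showed a wider range than the members. Of the 12 that could be tested, 5 were higher and 6 lower at 48 hours, and 5 were higher and 5 lower at 7 days, against 54.6% and 56.8% of all genes called, with median log2 fold changes of -0.16 and 0.13. Some of these calls rest on group means under 10 counts. They are Bik, lower at both times, Bcl2l15, higher at 48 hours, and Bcl2l14, lower at 7 days. The 4 not tested (Bcl2a1a, Bcl2a1b, Bcl2a1d and Bcl2l10) had fewer than 10 counts in total. Hrk, a BH3-only gene, had 10.8, 15.6, 10.2 and 14.7 normalized read counts in DMSO and 311, 340, 333 and 363 under sorafenib at 48 hours. At 7 days Hrk had 11.2 to 15.8 counts in DMSO and 229 to 254 under sorafenib. Its log2 fold changes of 4.69 ± 0.11 and 4.21 ± 0.12 (edgeR adjusted p 1.093e-17 and 7.479e-17) exceeded those of every one of the 10 members.

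Bcl2l2, the anti-apoptotic member that encodes BCL-W, went from 558 ± 38.2 to 1154 ± 110 counts at 48 hours and from 614 ± 22.2 to 1160 ± 33.7 at 7 days (log2 1.05 and 0.92, edgeR adjusted p 9.703e-12 and 5.536e-11). Bnip3, a BH3-like gene of mitochondrial clearance that hypoxia is known to induce, had 2516 to 2872 counts in DMSO and 270 to 318 under sorafenib at 48 hours (log2 -3.24 ± 0.11, edgeR adjusted p 2.334e-15). At 7 days it had 159 to 271 counts in DMSO and 234 to 321 under sorafenib, so that its response turned to 0.60 (edgeR adjusted p 5.419e-04). The difference of 3.84 ± 0.17 was called (edgeR adjusted p 8.749e-13), and it went with a vehicle level that fell from a mean of 2730 to 191 between the times.

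**Figure D5:**
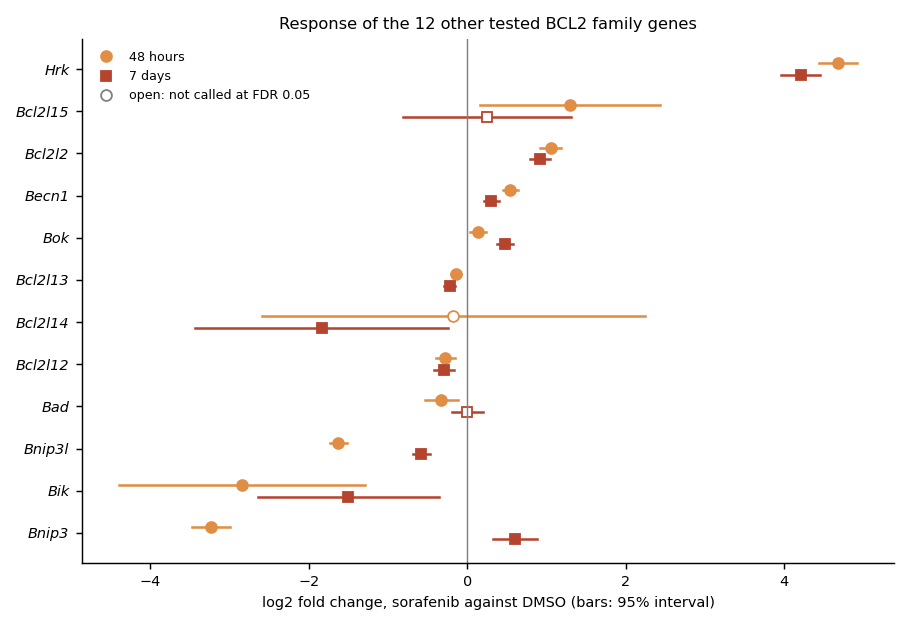
Log2 fold change, sorafenib against DMSO, of the 12 other BCL2 family genes that could be tested, with 95% intervals from the fit over 16 libraries; open symbols were not called. Hrk lies at 4.69 and 4.21, and Bnip3 at -3.24 at 48 hours and 0.60 at 7 days; the wide intervals belong to Bcl2l14, Bcl2l15 and Bik, which had means under 10 counts.

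Of 16 genes around cytochrome c release and caspase activation, 6 were higher and 7 lower at 48 hours and 4 higher and 9 lower at 7 days. This list mixes genes that promote caspases with genes that restrain them and includes membrane channels, so its counts give no direction of the pathway. Casp6, an executioner caspase, went from 618 to 327 counts at 48 hours and from 355 to 250 at 7 days (log2 -0.92 ± 0.055 and -0.51 ± 0.057). Vdac2, a channel of the outer mitochondrial membrane that binds BAK, went from 4925 to 10387 counts at 48 hours (log2 1.08 ± 0.030). Its response at 7 days was smaller (log2 0.15 ± 0.030). Aifm1, a mitochondrial flavoprotein, was lower at 7 days (log2 -0.83 ± 0.10). It was also called lower at 48 hours (log2 -0.37 ± 0.10), with treated libraries spread from 1113 to 1964 counts.

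In the death receptor pathway, 9 of 11 genes could be tested, and 4 were higher and 3 lower at each time. Tnfrsf10b, the mouse TRAIL receptor, and the adaptor Tradd had log2 fold changes of 0.52 ± 0.061 and -0.52 ± 0.073 at 48 hours. At 7 days Casp8, the protease that cleaves BID, was higher (0.58 ± 0.067) and the TNF receptor Tnfrsf1a lower (-0.73 ± 0.037).

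Of 12 transcription factors known to control BH3-only genes, 4 were higher and 5 lower at 48 hours and 7 higher and 5 lower at 7 days. Ddit3, which encodes the stress factor CHOP, went from 276 ± 16.2 to 3271 ± 195 counts at 48 hours and from 393 ± 11.3 to 2941 ± 57.6 at 7 days (log2 3.57 ± 0.051 and 2.90 ± 0.048). Atf3, another factor of the stress response, went from 101 ± 8.65 to 1119 ± 98.8 and from 405 ± 43.7 to 1525 ± 47.3 (log2 3.47 ± 0.085 and 1.91 ± 0.069). Of the 13 regulators of MCL1, BIM and NOXA protein turnover, 6 were higher and 3 lower at 48 hours and 3 higher and 3 lower at 7 days. The deubiquitinase Usp13 fell at both times (log2 -0.64 ± 0.056 and -1.32 ± 0.056). Uchl1 rose at 48 hours (0.70 ± 0.045) and was not called at 7 days (0.04). Map2k1, which encodes the kinase MEK1, rose at both times (0.42 ± 0.038 and 0.78 ± 0.038). Adjusted p for the genes named here from these 4 lists was at most 3.439e-06 by edgeR's test over all genes. This bound holds at the times when a gene was among the 2 picked from its list. The share of each list called can be set against the 54.6% and 56.8% of all genes. Without sorafenib at 48 hours, replicate 2, the genes called at 48 hours went from 11 to 10 among the other BCL2 family genes, from 7 to 6 in the death receptor pathway and from 9 to 10 among both the transcription factors and the turnover regulators, and stayed at 13 for caspase activation, while 57% of all genes were called in that fit.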

How the data were processed

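The deposited values are raw counts of reads per gene, with no normalization or pooling of replicates. The authors made the libraries with a stranded mRNA kit, and the submitters' processing notes name the mouse build GRCm39, STAR 2.7.1a, featureCounts 2.0.6 and DESeq2 1.40.2. The gene annotation and the strand setting of the counting were not given in the sources used here.

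Groups and replicate numbers came from the labels, which do not say whether replicates were separate cultures, so p-values measure only the spread between these libraries. Every library counted as its own replicate. The most alike pair of a group differed by a chi-square of 1.58 per gene over 10660 genes. No library was thus a copy of another, but this value cannot show that cultures were separate. Genes with at least 10 counts in total (20444 of 40840) were tested with edgeR 4.0.16 (R 4.3.3), with TMM normalization and a quasi-likelihood fit of 1 coefficient per group over all 16 libraries. Adjusted p is Benjamini-Hochberg over all genes tested. Normalized read counts are counts divided by each library's TMM-scaled total relative to the geometric mean. The script was tested on simulated data.

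The members, gene lists and tests were chosen with earlier results of these data known. From each pathway list, the text names the 2 genes that changed most at each time, provided that their mean level reached 100 normalized read counts. Lengths and positions came from GENCODE for GRCm39. Alternatives were DESeq2 1.42.0 and limma 3.58.1, other scalings and filters, a fold threshold, a replicate block and leaving out each library. At these depths, 3 counts correspond to 2.44 to 4.54 normalized read counts, which covers counting error only.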

Additional observations from a re-analysis of the deposited data

Results flagged for a closer look

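Of 40 member levels by group, 5 held a library whose gap to its neighbours was wide for a group of 4, where chance gives about 1 in 20. In sorafenib at 48 hours, replicate 2 stood apart for Bcl2l1 (1120.5 normalized read counts, the others 905.01 to 925.61) and for Bak1 (1757.1, the others 2881 to 2922.7). This library also has the lowered counts on chromosomes 15 to 19 and X, where Bak1 lies and Bcl2l1 does not. On chromosomes 1 to 13, where Bcl2l1 lies, its median log2 deviation from the rest of its group was 0.0909. The remaining ones were Mcl1 in DMSO at 48 hours, replicate 3 (4288.9, the others 4106.3 to 4131.2), Mcl1 in sorafenib at 7 days, replicate 2 (5815, the others 5188.9 to 5287.1), and Bak1 in sorafenib at 7 days, replicate 1 (3393.6, the others 3163.3 to 3195.1).

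The response to sorafenib differed between 7 days and 48 hours for 7 members by the interaction term of edgeR's quasi-likelihood test. Lower values at 7 days were those of Pmaip1 (log2 -1.99, adjusted p 1.972e-09), Bcl2 (-0.49854, adjusted p 2.068e-04), Bax (-0.48658, adjusted p 1.793e-06), Bcl2l1 (-0.3315, adjusted p 2.644e-03) and Mcl1 (-0.32618, adjusted p 1.174e-04). Higher values were those of Bbc3 (1.0188, adjusted p 7.512e-09) and Bcl2l11 (0.50721, adjusted p 9.438e-05). Pmaip1 was the member called with opposite directions at the 2 times.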

How the results depend on the processing

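With a log2 change of 1 or more in size also required, 3, 4, 2, 2 and 2 members and 3690, 4202, 1965, 2242 and 1727 genes were called for sorafenib at 48 hours, at 7 days, their difference, DMSO over time and sorafenib over time. The log2 difference between the responses of Bid, near 0 and never called, turned positive with library totals only (0.06078), separate TMM factors for chromosomes 15 to 19 and X (0.01161) and at least 10 counts in every sample (0.03219). Leaving out 1 library gave -0.05491 to 0.00981 for Bid, 0.0009018 and 0.009111 among them, and -0.006997 to 0.16 for Bmf. The call of Bak1 at 48 hours was lost with only the 2 groups in the fit (adjusted p 0.1285, edgeR) and without DMSO replicate 1 or sorafenib replicate 1, 3 or 4. Mcl1 at 7 days was called under 6 alternatives (edgeR or limma adjusted p 0.00505 to 0.04848) and missed under the others (up to 0.2624). Between the treated groups, Bcl2 was called under 11 alternatives and Bax under 5, and between the vehicle groups Bak1 was called under 4. Causes were not tested. With library totals only, mean levels moved past 1 SD for Mcl1 (4282.7), Bcl2l11 (1664.4) and Bid (471.22) in DMSO and Bbc3 (890.24) in sorafenib, all at 48 hours. In the order DMSO and sorafenib at 48 hours and at 7 days, undivided counts gave Mcl1 shares of 77.29%, 69.48%, 76.57% and 69.31% and Bcl2 shares of 4.347%, 16.92%, 4.815% and 16.85%. Coding length gave 72.14%, 63.02%, 71.3% and 62.85% for Mcl1 and 5.525%, 20.91%, 6.107% and 20.81% for Bcl2. No scaling moved the median of all genes by more than 0.0938. Deviations of DMSO and sorafenib libraries with the same number correlated weakly. For 48 hours these pairs averaged -0.00824, against 0.00272 for pairs with different numbers. For 7 days they averaged 0.0716, against -0.0231. Only 1 of 4 matched best with its own number at each time. At 48 hours the step of -0.725 in sorafenib replicate 2 shaped the deviations of its group, which can hide pairing. The check therefore does not settle whether same-numbered libraries were paired. A fit with the replicate block called 9, 9 and 7 members and 10644, 11027 and 6987 genes for the first 3 comparisons and changed no call of a member. The block could not be fitted for the comparisons over time, and the fit of 2 groups was not run for the difference.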
